A study of Mus musculus with 18 samples.

Results

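Of the 18 RNA-seq libraries of the series, 12 were compared here: in each of the 6 groups of 3 libraries, the library with the highest TPM (transcript abundance scaled to a fixed total per library) of the macrophage gene C1qa and the library with the lowest. They are called the high and the low library, and each group gives 1 pair. The libraries were chosen by their measured C1qa, which is left out of the results. All other macrophage genes of the same libraries follow from that choice as well, so the differences are a description and carry no test. The libraries hold RNA of sorted mouse (C57BL/6) pancreatic tumor cells recovered from tumors grown under the skin, without treatment. The cells came from 2 lines, 6419c5 and 6694c2, each as wild type (WT) and as 2 clones with a knockout of Kdm3a, a gene for a demethylase of histone H3, called clones A and B. Both libraries of a pair share line and genotype. Each knockout group stands for 1 clone only. The labels leave unsaid whether libraries of a group stem from different mice, what the sort selected on, how Kdm3a was disrupted, and the age of the mice.

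Macrophages take up dead cells, debris and immune complexes. They make the complement protein C1q from 3 chains encoded by C1qa, C1qb and C1qc, and depend on signals through the receptor Csf1r. In pancreatic tumors they are often among the most numerous immune cells, and those that live in tissues over long times (resident macrophages) carry receptors such as Folr2, Lyve1, Cd163 and Mrc1. Tumor cells of epithelial origin do not normally express C1q genes. In bulk RNA, fewer macrophages and less RNA per macrophage cannot be told apart.

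The spread of C1qa that defined the pairs was very uneven. In 6419c5 the low, middle and high libraries had 151, 299 and 1235 TPM in WT (replicates 1, 2 and 3), 383, 1221 and 1574 TPM in clone A (replicates 1, 3 and 2) and 24.7, 37.6 and 52.9 TPM in clone B (replicates 2, 1 and 3). In 6694c2 they had 15.3, 89.1 and 362 TPM in WT (replicates 3, 1 and 2), 553, 626 and 791 TPM in clone A (replicates 2, 3 and 1) and 50.4, 51.4 and 578 TPM in clone B (replicates 2, 1 and 3). The high library thus had from 1.43 times (6694c2 clone A) to 23.7 times (6694c2 WT) the C1qa of its low library. The words high and low hold only within a group: the low library of 6694c2 clone A had 10.5 times the C1qa of the high library of 6419c5 clone B. A macrophage index, the mean log2(TPM + 1) of 27 macrophage genes without the C1q genes, put the 3 libraries of each group in the same order as C1qa did. In 6694c2 clone B the low and middle libraries were nearly tied, with an index of 3.27 and 3.28. C1qb put these libraries in the reverse order, at 41.9 and 39.8 TPM.

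**Figure D1:**
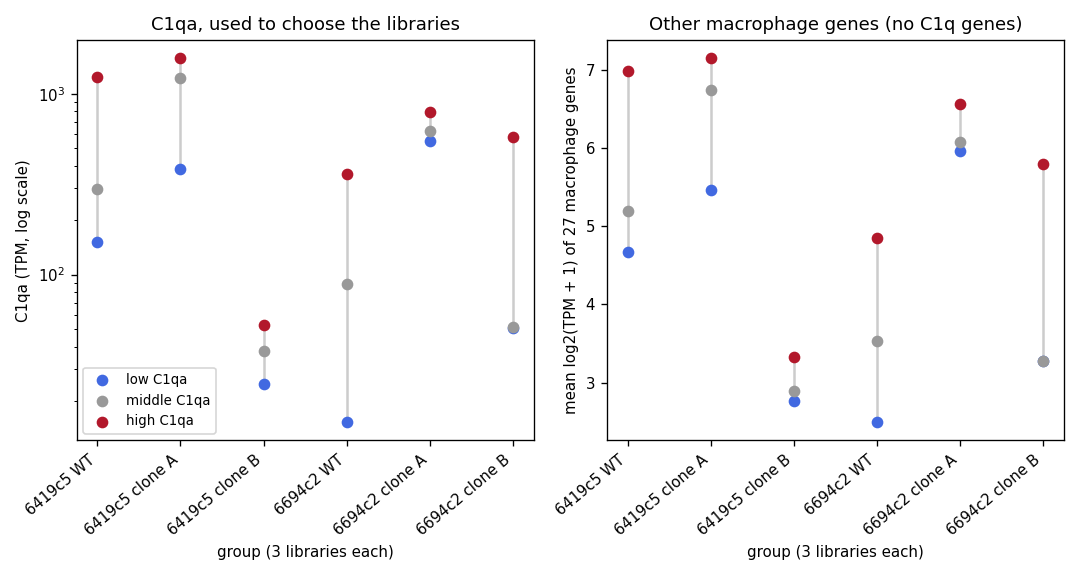
C1qa in TPM on a log axis (left) and the mean log2(TPM + 1) of 27 other macrophage genes (right) in each of the 18 libraries, by group; color gives the rank of C1qa within the group and the grey line spans the group. The 6419c5 clone B and 6694c2 clone A groups are narrow, and the high library of 6694c2 clone B, at 578 TPM of C1qa, lies far from the other two.

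Depth is unknown because the files hold only TPM. Between 12213 and 13590 genes had at least 1 TPM in a library, and libraries of a group correlated at 0.932 to 0.989 across genes (Pearson, log scale). The entry Mir6236 alone took 6.04% to 17.4% of all TPM of a library, and was higher in the high library in 2 of 6 pairs. In 3 groups 1 library was taken to stand apart from the other 2 in markers of macrophages, fibroblasts or endothelium: WT replicate 3 of 6419c5, clone A replicate 1 of 6694c2 and clone B replicate 3 of 6694c2. All 3 are the high library of their pair, so counts are also given without them, with the next library taking their place. The choice followed no numerical limit. By C1qa alone the high library of 6694c2 WT, which was not chosen, had 4.06 times the level of its middle library. That ratio was 4.13 in 6419c5 WT and 1.26 in 6694c2 clone A, whose high libraries were chosen. The targeted gene Kdm3a had 38.2, 21.6, 18.8, 67.6, 26.4 and 30.2 TPM in the low libraries and 32.9, 24.6, 13.5, 38.9, 26.2 and 25.2 TPM in the high libraries (order 6419c5 WT, clone A, clone B, then 6694c2 WT, clone A, clone B). Its transcript fell in the knockouts of both lines (-0.75 in each, SE 0.18, limma adjusted p = 0.0185 in 6419c5 and 0.0091 in 6694c2) but was still present in all their libraries. In 6419c5 the call was lost without WT replicate 1 (adjusted p = 0.113), without WT replicate 3 (0.0742) and without the 3 libraries that stood apart (0.0982).

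Differences are the log2(TPM + 1) of the high minus the low library, averaged over the 6 pairs and given with the SD over pairs; the added 1 TPM shrinks the difference of genes with few TPM. A gene was counted as higher when it was higher in all 6 pairs with a mean difference of at least 1, and as lower by the mirror rule. Of 13421 genes averaging at least 1 TPM, 243 (1.81%) were counted higher and 101 (0.753%) lower. Arhgap25 (1.002) and Xiap (-1.002) lay just inside these limits, and Pycard (0.995) and Uqcrb (-0.99) just outside. Without the size limit, 828 genes (6.17%) were higher and 2166 (16.1%) lower in all 6 pairs, so of the genes on one side in every pair most were lower. That balance depended on the scaling: it was 1541 higher and 1675 lower with median-of-ratios scaling and 1320 and 1966 with quantile normalization, which moved the median difference of all genes from -0.04 to 0.04 and 0.00. After the median of genes of like GC content was subtracted (below), the balance turned, with 1080 higher and 961 lower. That step centres genes of like GC content on 0 in every pair, so a near-even balance is largely built in. Without the 3 libraries that stood apart, 32 genes were counted higher and 59 lower, 30 and 44 of them shared with the main counts.

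Of the 15 genes with the largest differences, 9 are in the lists of macrophage genes described below. All 29 lists together, of macrophage and other genes, hold 440 of the 24493 symbols. The lists were written with earlier results of these data known, and a macrophage gene chose the libraries. Nothing is therefore read from this overlap. The 15 largest differences among genes with at least 5 TPM belonged, in order, to Cbr2, Ifi27l2a, Cd209f, Pltp, Ccl8, Folr2, Cd300ld4, Cd300ld3, C1qb, Apoe, Clec10a, Gas6, C1qc, Cd209d and Ltc4s, and ran from 2.82 down to 2.40. Cbr2, a carbonyl reductase (chromosome 11), had 39.8, 76.2, 4.12, 3.47, 91.1 and 6.53 TPM in the low and 429.9, 451, 7.08, 102, 334 and 113 TPM in the high libraries, in the order of groups above (2.82 ± 1.42). Every high library lay above its own low library, yet the high library of 6419c5 clone B was below the low library of 3 groups. Apoe, the lipid carrier apolipoprotein E (chromosome 7), had 658, 1584, 131, 53, 1618 and 165 TPM against 5310.3, 6894, 252, 1278, 2880.4 and 1679 TPM (2.47 ± 1.46). Its highest level, 6894 TPM, was in 6419c5 clone A replicate 2. Folr2, a folate receptor of resident macrophages (chromosome 7), had 37.6, 87.2, 1.31, 3.41, 93 and 6.83 TPM against 328, 431, 6.13, 85.4, 153 and 128 TPM (2.67 ± 1.40). Ccl8, a chemokine that attracts monocytes (chromosome 11), had 112, 1024, 11.2, 10.6, 867 and 39.3 TPM against 1326, 3874, 39.6, 237, 1090.2 and 789 TPM (2.70 ± 1.62). In 6694c2 clone A its pair differed little (867 and 1090 TPM), while its low library had more Ccl8 than the high libraries of 6694c2 WT and clone B. Pltp, a phospholipid transfer protein (chromosome 2), had 39.1, 88.6, 4.69, 3.55, 125 and 17.4 TPM against 419.7, 556, 11.6, 116, 287 and 176 TPM (2.72 ± 1.37). Gas6, a ligand that tags dying cells for the receptor Mertk, had 41.1, 53.6, 2.11, 2.36, 49.9 and 3.52 TPM against 222, 289, 5.19, 54.4, 106 and 62.6 TPM (2.46 ± 1.30). Ltc4s, the enzyme that makes the lipid mediator leukotriene C4, had 4.88, 7.69, 0.630, 0.899, 28.5 and 2.23 TPM against 88.8, 55.5, 1.06, 17.8, 45.4 and 35.1 TPM (2.40 ± 1.53) and was the lowest of the 15 in level. Cd209d, Cd209f, Cd300ld3 and Cd300ld4 have close relatives among their gene neighbours, so how reads were shared between copies is uncertain.

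**Figure D2:**
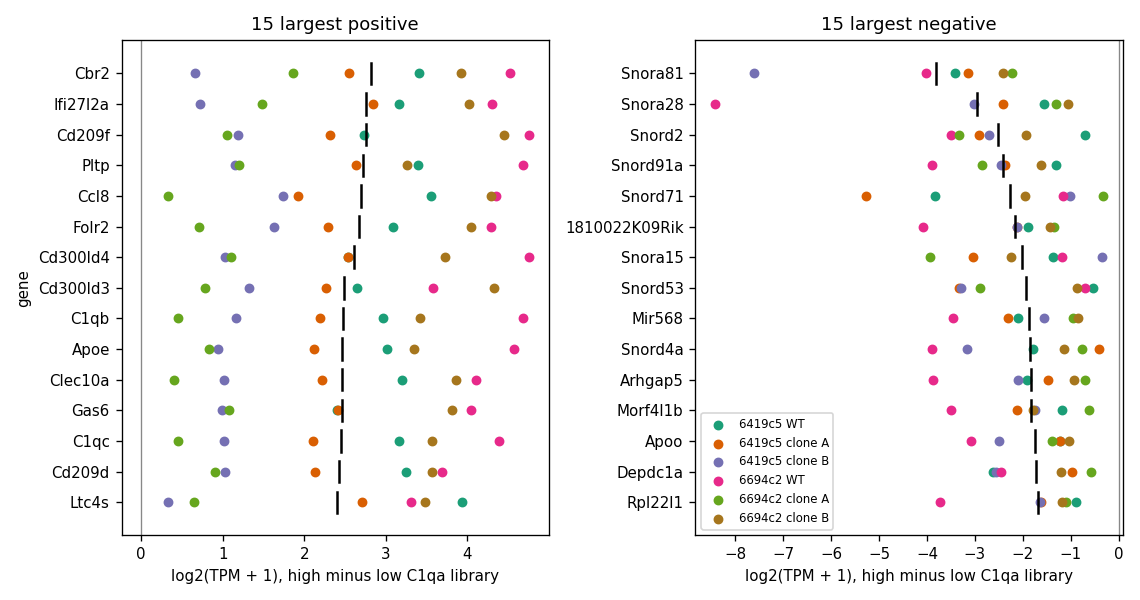
Difference in log2(TPM + 1) between the high and the low library for the 15 genes with the largest positive (left) and negative (right) mean difference among genes on one side in all 6 pairs; each point is 1 pair, colored by group, and black bars are means over the 6 pairs. The 6694c2 WT pair lies at or near the upper end for most genes on the left, and single pairs reach -7.62 for Snora81 and -8.42 for Snora28.

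Macrophage genes depend in part on the factor PU.1, encoded by Spi1. Spi1 is in the macrophage core list and was counted higher (1.96 ± 1.23), which follows from the choice of libraries. The core bound by PU.1, searched as GAGGAAG on both strands, was present in the promoter window (250 bases before to 50 after the start, RefSeq, GRCm38.p6) of 60 of the 179 counted-higher genes with a promoter in the table (33.5%), of 8 of 57 counted-lower genes (14.0%) and of 1638 of all 10211 tested genes (16.0%). A gene with several starts had a match if any window had one. Of single windows, 13.6% of 32851 held it. TGANTCA, the AP-1 motif, was in the windows of 9.5%, 5.26% and 7.04% of the same sets of genes, and CACGTG, the E-box of the element bound by TFEB, in 6.15%, 5.26% and 11.6%. None of the 3 motifs contains another. The 250 bases before the start are shown for 3 of the 6 genes among the top 15 that held GAGGAAG (13 had a promoter in the table), to show where the match stands; capitals mark GAGGAAG or its reverse complement.
Cbr2, chr11:120732022-120732271, minus strand: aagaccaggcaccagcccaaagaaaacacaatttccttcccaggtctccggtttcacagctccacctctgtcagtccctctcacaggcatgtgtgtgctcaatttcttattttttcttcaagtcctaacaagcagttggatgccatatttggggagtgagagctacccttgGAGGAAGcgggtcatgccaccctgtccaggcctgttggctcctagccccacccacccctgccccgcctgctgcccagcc
Ccl8, chr11:82114935-82115184, plus strand: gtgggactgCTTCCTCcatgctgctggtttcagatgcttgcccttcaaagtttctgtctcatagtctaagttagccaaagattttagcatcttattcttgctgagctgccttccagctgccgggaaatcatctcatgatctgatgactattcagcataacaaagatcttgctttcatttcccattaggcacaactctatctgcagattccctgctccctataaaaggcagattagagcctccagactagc
C1qc, chr4:136892915-136893164, minus strand: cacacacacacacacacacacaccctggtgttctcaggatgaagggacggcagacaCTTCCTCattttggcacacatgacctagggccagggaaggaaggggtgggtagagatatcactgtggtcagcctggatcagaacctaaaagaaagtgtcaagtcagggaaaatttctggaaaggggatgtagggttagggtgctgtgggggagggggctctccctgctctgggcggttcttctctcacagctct
In Cbr2 the match lies near the start and reads forward, whereas in Ccl8 and C1qc it reads on the other strand and farther upstream. A match is a sequence of letters and not a measured binding site. The sets of promoters were not matched for base composition, and transcript GC content differed between the sets (below). A role of PU.1 was not tested.

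Of the 29 genes of the macrophage core list (C1qa left out), 27 were higher in all 6 pairs and 26 were counted higher, with a median difference of 1.93 against -0.04 over all genes. Csf1r, the receptor that macrophages need to survive, had 4.39, 25.3 and 118 TPM (lowest, median, highest) in the low libraries and 10.7, 153 and 363 TPM in the high libraries (2.20 ± 1.33). Cd68, a protein of the lysosomal membrane, had 5.75, 29.1 and 121 TPM (lowest, median, highest) in the low libraries and 15.1, 153 and 298 TPM in the high libraries (1.94 ± 0.85). Lyz2, lysozyme, had 65.2, 457 and 1419 TPM (lowest, median, highest) in the low libraries and 245, 2248 and 3595 TPM in the high libraries (2.03 ± 0.86); its relative Lyz1 makes the assignment of its reads uncertain. C1qb had 9.15, 87.9 and 479 TPM (lowest, median, highest) in the low libraries and 48, 557 and 1342 TPM in the high libraries (2.48 ± 1.54). The sets overlap in range for all 4 genes, although each pair has the same sign. The transcription factor gene Spi1 (1.96), the adhesion receptor Adgre1 (1.94), the engulfment receptors Mertk (1.28) and Trem2 (1.93), the mannose receptor Mrc1 (1.27) and the hemoglobin scavenger receptor Cd163 (2.10) were all counted higher. By pair the median of the list was 2.53, 1.80 and 0.56 in WT, clone A and clone B of 6419c5 and 2.75, 0.55 and 2.72 in 6694c2. Without the 3 libraries that stood apart the median was 1.04.

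The 3 core genes that were not counted are of interest by their levels. Cd14, a receptor for bacterial lipopolysaccharide, had 245, 210.4, 173, 159, 200.2 and 137 TPM in the low and 297, 287, 179, 176, 284 and 147 TPM in the high libraries. It was higher in all 6 pairs, but by only 0.25 ± 0.19, and the lowest of all 18 libraries still had 136 TPM. Ctsc, a protease of lysosomes and granules, had 62.5, 55.3, 35.6, 57.2, 59.6 and 7.85 TPM against 118, 143, 27.5, 41.9, 69.2 and 46.4 TPM (0.68 ± 1.10) and was lower in the high library of 6419c5 clone B and 6694c2 WT. Cx3cr1, the fractalkine receptor, had 2.34, 5.06, 2.09, 1.51, 8.79 and 1.57 TPM against 9.41, 5.72, 1.88, 1.15, 11.9 and 4.18 TPM (0.48 ± 0.72) and was higher in 4 of 6 pairs.

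Among 18 tested genes of alternatively activated or resident macrophages, 12 were counted higher (median 2.002). The 6 others, Arg1, Chil4, Lyve1, Ccl7, Selenop and Mgl2, differed in sign in at least 1 pair. Lyve1, a hyaluronan receptor, was higher in 5 pairs (2.08 ± 1.44), the exception being 6419c5 clone B at 2.56 and 2.28 TPM. Arg1, which breaks down arginine, was higher in 5 pairs (1.11 ± 0.96) and lower in 6694c2 clone A, at 397 and 245 TPM. Retnla, a secreted marker of alternative activation, had 19.5, 90.5, 8.22, 1.48, 336 and 23.8 TPM against 159, 354, 14.6, 2.38, 525 and 302 TPM (1.73 ± 1.33). In 6694c2 WT it stayed at 1.48, 1.69 and 2.38 TPM while C1qa went from 15.3 to 362 TPM, whereas the high library of clone B, with 578 TPM of C1qa, had 302 TPM of Retnla. In the labelled comparison of 6694c2 knockout clones with WT Retnla rose by 5.75 (SE 0.77, limma adjusted p = 1.05e-04). In 6419c5 Retnla differed by 0.20 and did not pass (SE 0.77, limma adjusted p = 0.946). Chil4, a chitinase-like protein, had 1.42, 15.8, 37.7, 19.3, 1916 and 342 TPM against 15.3, 16.8, 3.86, 20.2, 115 and 329 TPM (-0.70 ± 2.45) and was lower in the high library of 3 pairs, most in 6694c2 clone A, from 1916 to 115 TPM. The macrophage core genes of that pair were all higher in the high library. Chil4 rose in the 6694c2 knockouts as well (4.61, SE 0.84, limma adjusted p = 0.00142). In the 6419c5 knockouts Chil4 was 1.78 higher and did not pass (SE 0.84, limma adjusted p = 0.262).

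Receptors for antibodies and the kinases behind them were mostly higher in the high libraries: of 14 genes, 11 were counted higher (median 1.41) and none was lower on average. The inhibitory receptor Fcgr2b (1.92 ± 1.09) and the activating receptors Fcgr3 (1.73 ± 0.90), Fcgr1 (1.63 ± 0.79) and Fcgr4 (1.44 ± 0.84) were among them with their adaptors Tyrobp (2.06 ± 1.05) and Fcer1g (1.95 ± 1.01). Fcgr3 had 8.18, 34.8 and 168 TPM (lowest, median, highest) in the low libraries and 19, 162 and 364 TPM in the high libraries. The kinase gene Lyn (0.72 ± 0.55), the adaptor gene Lcp2 (1.43 ± 0.91) and the kinase gene Btk (1.22 ± 0.86) were higher in 5 pairs. Among the genes of the phagocyte NADPH oxidase, which makes superoxide, the cytosolic subunit genes Ncf1 (1.73) and Ncf4 (1.75) and the GTPase gene Rac2 (1.33) were counted higher. The membrane subunits were not: Cyba differed by 0.48 ± 0.20 and Cybb by 0.19 ± 0.49. Cybb had 19.9, 49.97, 22.9, 7.94, 35 and 41.2 TPM against 28.5, 49.9, 23, 5.30, 67.5 and 48.2 TPM and was higher in 4 of 6 pairs. It rose in the 6694c2 knockouts by 2.67 (SE 0.22, limma adjusted p = 6.93e-07).

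Of 15 complement genes 7 were counted higher. They were C1qb, C1qc, C4b (1.33 ± 0.94), the stabilizing factor properdin Cfp (2.13 ± 1.34), the receptors C3ar1 (1.40 ± 0.75) and C5ar1 (1.95 ± 0.95), and the integrin Itgam (1.77 ± 0.93). The soluble components C3 (-0.02 ± 0.54), C2 (0.24 ± 0.43), Cfb (0.16 ± 0.32) and C1s1 (0.16 ± 0.62), which epithelial cells and fibroblasts can also make, had means within their SD of 0 and mixed signs. C3 had 442, 1618, 823, 62.8, 249 and 86 TPM against 259, 1664, 794, 62.2, 212 and 161 TPM. The receptor gene Vsig4 was higher in 5 of 6 pairs (1.23 ± 0.82).

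Of 20 lysosomal genes, 9 were higher in all 6 pairs and 2, Ctss (1.61 ± 0.96) and Lgmn (1.15 ± 0.78), both proteases, were counted. The list median was 0.52. Of its 6 most abundant members, the proteases Ctsb (0.87 ± 0.64) and Ctsd (0.53 ± 0.28), the sphingolipid activator precursor Psap (0.70 ± 0.34) and the progranulin gene Grn (0.70 ± 0.43) were higher in all 6 pairs. The membrane proteins Lamp1 (0.17 ± 0.17) and Cd63 (0.08 ± 0.16) were not. Of 20 chemokine and cytokine genes, 4 were counted higher: Ccl8, Ccl6 (2.01 ± 1.12), Ccl9 (1.83 ± 0.93) and Ccl3 (1.25 ± 0.73). Il1b (0.32 ± 0.49), Il10 (0.72 ± 1.10) and Tnf (1.19 ± 0.79) had mixed signs. The macrophage growth factor Csf1, higher in 2 of 6 pairs, differed by 0.01 ± 0.44.

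Of 15 genes of lipid-associated macrophages only Trem2, Apoe and Pltp were counted higher. The median was 0.53. Spp1, osteopontin, which macrophages and tumor cells both make, went the other way in all 6 pairs, with 11130.0, 8742, 8937, 12778, 13784 and 8505 TPM in the low and 7087, 6379.5, 6962, 9008, 8732 and 7561 TPM in the high libraries (-0.47 ± 0.19). The lowest of the 18 libraries had 5839 TPM. With quantile normalization its difference was -0.28, and after subtracting the median of genes of like GC content (below) it was -0.18.

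All 8 tested genes of MHC class II presentation, which show antigen to CD4 T cells, were higher in all 6 pairs. The 4 counted were H2-Ab1 (1.46 ± 0.78), H2-Aa (1.33 ± 0.55), H2-Eb1 (1.26 ± 0.58) and the invariant chain Cd74 (1.17 ± 0.63). The median was 1.08, and by pair it was 1.05, 0.93 and 1.51 in 6419c5 and 1.34, 0.54 and 0.75 in 6694c2. These medians did not follow those of the core list: the 6419c5 clone B pair, with a core median of 0.56, had the largest class II median. In that pair H2-Ab1 had 67.4 and 229 TPM, Cd74 398 and 1136 TPM, and Ciita, their transactivator, 5.42 and 13 TPM. H2-Ab1 had 55.7, 365, 67.4, 5.36, 563 and 305 TPM in the low and 201, 739, 229, 38.7, 771 and 624 TPM in the high libraries over the 6 groups. Its low libraries of 6694c2 clones A and B, at 563 and 305 TPM, exceeded the high library of 6694c2 WT at 38.7 TPM, although that library had 7.18 times the C1qa of the low library of clone B. In the labelled comparison H2-Ab1 rose in the 6694c2 knockouts by 5.08 (SE 0.55, limma adjusted p = 1.13e-05), while C1qb was 1.99 higher and did not pass (SE 0.97, adjusted p = 0.157). In the 6419c5 knockouts H2-Ab1 was 1.48 higher and did not pass (SE 0.55, limma adjusted p = 0.131). Of the 8 class II genes, limma called 6 higher in 6419c5 and all 8 in 6694c2, against 3.97% and 14.7% of all genes.

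Markers of other blood cells were mostly not on one side in all pairs. Of 9 tested monocyte genes 1, the coagulation factor gene F13a1 (2.17 ± 1.16), was counted higher; resident macrophages express it too. The list's median was 0.45, and -0.04 without the 3 libraries that stood apart. The monocyte genes Ly6c2 and Ccr2 reached at most 27.7 and 11.3 TPM. Of 12 tested neutrophil genes none was counted (median 0.25), and their mean differences ran from -1.03 to 0.99. By pair 9, 10 and 4 of the 12 were higher in 6419c5 and 5, 6 and 10 in 6694c2 (WT, clone A, clone B). S100a8, the most negative of the 12, was lower in the high library in 5 of 6 pairs (-1.03 ± 0.89). It had 18.7, 11, 3.01, 6.00, 73.8 and 9.58 TPM against 11.7, 6.22, 3.31, 0.380, 20.1 and 5.34 TPM. Of 8 tested T and NK cell genes only Cd4, which mouse macrophages can also express, was counted higher (1.02 ± 0.61), and its low library in 6694c2 WT was listed at 0. Of 6 tested dendritic cell genes Itgax (0.76 ± 0.59) was higher in all 6 pairs and Cd209a (1.37 ± 0.90) in 5, and none was counted. Xcr1, Clec9a, Flt3 and Siglech did not reach a mean of 1 TPM. The only tested gene of B and plasma cells was Jchain (0.33 ± 0.77), and Tpsb2 (0.84 ± 0.54) was the only 1 of 3 tested mast cell genes that was higher in all 6 pairs.

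**Figure D3:**
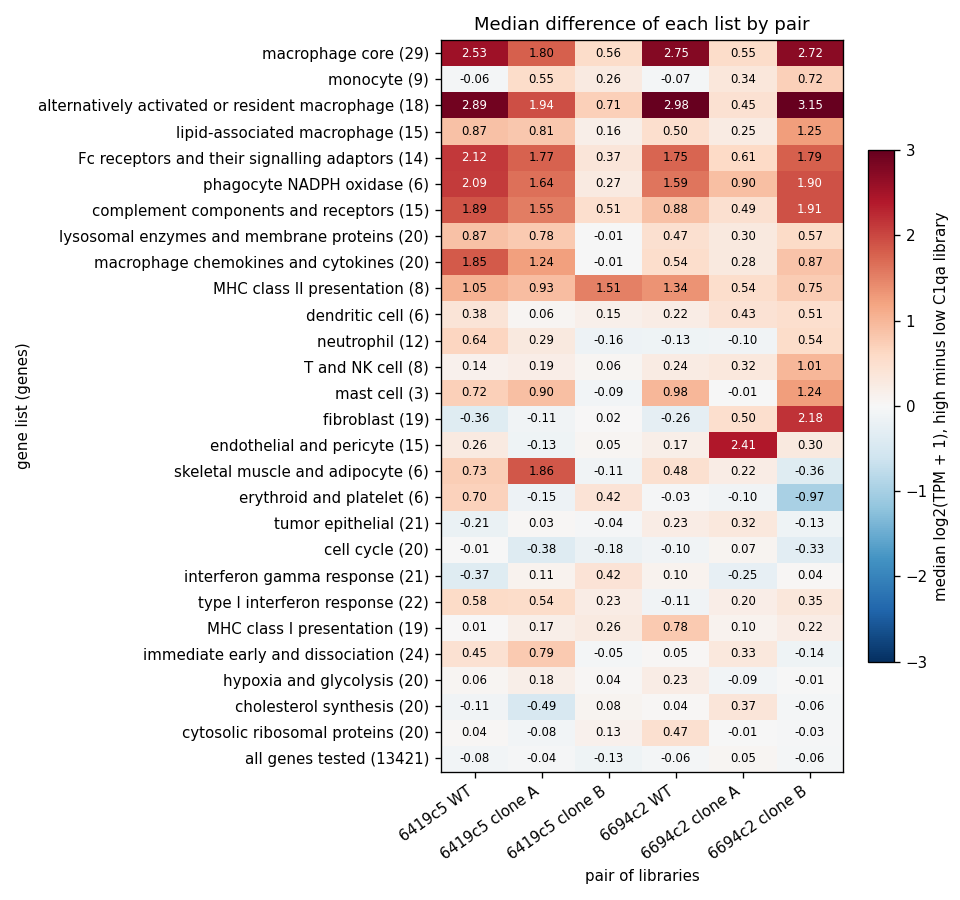
Median difference in log2(TPM + 1), high minus low library, of the tested genes of each list (rows, number of genes in brackets) in each of the 6 pairs (columns); red is higher and blue lower in the high library. The macrophage core list is above 0 in all 6 pairs (0.55 to 2.75), the fibroblast list stands out in the 6694c2 clone B pair (2.18) and the endothelial list in the 6694c2 clone A pair (2.41).

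Fibroblast and endothelial genes differed strongly in 1 pair each. All 19 tested fibroblast genes were higher in the high library of 6694c2 clone B (median 2.18), where their summed level went from 172 to 1086 TPM. In the other 5 pairs the median ran from -0.36 to 0.50. Col1a1, a chain of type I collagen, had 156, 363, 109, 71.4, 237 and 33.1 TPM against 101, 378, 93.4, 53.7, 329 and 288 TPM (0.39 ± 1.37), and it was lower in the high library of 3 groups. Pi16 was the 1 fibroblast gene counted higher (1.22 ± 0.80). Endothelial and pericyte genes had a median of 2.41 in the 6694c2 clone A pair, where 13 of 15 were higher and their sum went from 130.3 to 455 TPM, and medians of -0.13 to 0.30 in the others. In that pair Pecam1, an adhesion protein of endothelium, had 7.31 and 43.2 TPM, the VEGF receptor gene Kdr 0.708 and 18.6 TPM, and the junction gene Cldn5 2.51 and 51.0 TPM, while C1qa differed 1.43-fold. Eng, an endothelial co-receptor that macrophages can also express, was the 1 gene of this list counted higher (1.19 ± 0.66). Summed over its listed genes, the fibroblast list was at 172 to 1280 TPM in the low and 211 to 1333 TPM in the high libraries and the endothelial list at 36.3 to 137 and 49.8 to 455 TPM. The part of these cells in the counted genes was not tested; without the 3 libraries that stood apart the list medians were -0.04 (fibroblast) and 0.02 (endothelial).

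Tumor epithelial genes had no common direction. None of 21 was on one side in all 6 pairs and the median was 0.04 (0.13 with median-of-ratios scaling, when that of all genes was 0.04). Krt8, a keratin of simple epithelia, had 3962, 3633, 4486, 2504, 2139 and 2986 TPM in the low and 3508, 3498, 4176, 3125, 2356 and 2306 TPM in the high libraries (-0.04 ± 0.24). Krt19, another keratin, had 2626, 2385, 2297, 1063, 1032 and 1101 TPM against 2544, 2438, 2022, 1518, 1133 and 964 TPM (0.04 ± 0.26). Klf5, a factor of epithelial progenitors, differed by -0.01 ± 0.12 and the summed epithelial list was at 6544 to 13052 TPM in the low and 6388 to 11881 TPM in the high libraries. The defining keratins of the labelled tumor cells were thus abundant in all 12 libraries. The macrophage core list summed to 407 to 4496 TPM in the low and 765 to 10364 TPM in the high libraries. None of its genes was at 0 in any low or high library.

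In lists of programs that could vary with handling or immune signals no gene was counted. Their medians ran from -0.16 to 0.32, against -0.04 over all genes. None of the 21 interferon gamma response genes was higher in all 6 pairs and 1, Iigp1, was lower (-0.65 ± 0.70; list median 0.03). Of 22 type I interferon genes, Irf7 (0.74 ± 0.34), Isg15 (0.65 ± 0.37), Oas1a (0.59 ± 0.22), Cmpk2 (0.39 ± 0.22) and Oasl1 (0.30 ± 0.23) were higher in all 6 pairs and none was counted (median 0.32). Ifi27l2a, an interferon-induced gene outside that list, was among the 15 largest differences (2.75 ± 1.41). Of 19 MHC class I genes 5 were higher and 1, the chaperone gene Pdia3 (-0.56 ± 0.39), lower in all 6 pairs. Over all genes 6.17% were higher in all 6 pairs, so 5 of 22 and 5 of 19 lie above that share. The type I interferon median was above 0 in 5 pairs and the MHC class I median (0.29 on average) in all 6. Among 24 immediate early and dissociation genes, which answer to handling of cells, Klf2 (0.41 ± 0.43) was higher and Klf6 (-0.36 ± 0.32) lower in all 6 pairs. Of 20 hypoxia and glycolysis genes the lactate exporter gene Slc16a3 (0.78 ± 0.72) and Car9 (0.26 ± 0.19) were higher in all 6, and of 20 cholesterol synthesis genes none was on one side. Of 20 cell cycle genes 4 were lower in all 6 pairs, namely Bub1 (-0.79 ± 0.47), Top2a (-0.71 ± 0.33), Mki67 (-0.43 ± 0.36) and Ccnb1 (-0.34 ± 0.16), and none was counted; 16.1% of all genes were lower in all 6 pairs, so 4 of 20 is near the share of all genes. The median was -0.16.

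The genes counted lower were of another kind. Most of the 101 were still protein-coding (80 genes, 79.2%, against 92.5% of all tested genes), although small RNAs led by size. Ordered by size, the 15 with at least 5 TPM in 1 set were Snora81, Snora28, Snord2, Snord91a, Snord71, 1810022K09Rik, Snora15, Snord53, Mir568, Snord4a, Arhgap5, Morf4l1b, Apoo, Depdc1a and Rpl22l1, from -3.81 to -1.69. Small nucleolar RNAs guide chemical changes of ribosomal and spliceosomal RNA and are mostly cut from introns of host genes, so reads of a host intron cannot be told from them here. Of 98 tested small nucleolar, Cajal body and nuclear RNAs, 12 were lower in all 6 pairs, a share of 12.2% that is below the 16.1% of all genes. Of these RNAs 10 were counted lower (0.753% of all genes were) and 1 higher. Snora81 had 177, 30.6, 195, 65.6, 43 and 65.3 TPM in the low and 15.7, 2.56, 0, 3.10, 8.38 and 11.5 TPM in the high libraries (-3.81 ± 1.98; listed at 0 in 1 high library). Both sets were separate for it: the highest of the high libraries lay below the lowest of the low ones. Snord2, next to it on chromosome 16, had 46.5, 27.8, 60.7, 10.3, 9.06 and 42.4 TPM against 28.2, 2.79, 8.43, 0, 0 and 10.3 TPM (-2.52 ± 1.04), with 2 high libraries listed at 0. The transcripts of both are shown to give their size and base composition (GENCODE M21, GRCm38); capitals mark G and C, which make up 38.8% of Snora81 and 39.1% of Snord2.
Snora81, chr16:23110756-23110933, plus strand: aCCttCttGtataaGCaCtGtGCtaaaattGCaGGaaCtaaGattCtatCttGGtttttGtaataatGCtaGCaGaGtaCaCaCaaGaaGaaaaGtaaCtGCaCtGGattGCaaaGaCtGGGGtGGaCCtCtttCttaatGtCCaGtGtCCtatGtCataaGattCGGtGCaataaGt
Snord2, chr16:23108953-23109021, plus strand: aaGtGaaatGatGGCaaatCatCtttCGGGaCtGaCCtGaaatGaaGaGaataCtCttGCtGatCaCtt
Both are short and rich in A and T. The protein-coding genes among the 15 with a gene model had 34.9% to 44.3% G and C. 1810022K09Rik (39.1% G and C) had 292, 108, 305, 171, 104 and 168 TPM against 78.2, 24.1, 68.9, 9.24, 40.05 and 61.3 TPM (-2.17 ± 0.99). Rpl22l1, a relative of a ribosomal protein (39.1%), had 147, 85.1, 173, 249, 121 and 152 TPM against 79.1, 27, 54.7, 17.8, 55.5 and 66.8 TPM (-1.69 ± 1.04). Arhgap5, a regulator of small GTPases (34.9%), had 39.6, 13.7, 43.8, 48.7, 13.4 and 29 TPM against 9.84, 4.30, 9.43, 2.39, 7.82 and 14.7 TPM (-1.83 ± 1.13), and no group's high library reached its low one for any of these 3 genes.

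Base composition ran through the whole table. The median GC content of transcripts was 39.4% for genes counted lower, 53.0% for genes counted higher and 50.8% for all tested genes with a gene model. Of the 1325 genes in the lowest decile of GC content (21.7% to 42.8%), 56.0% were lower and 0.906% higher in all 6 pairs, and 85 of the 101 counted-lower genes were in it. In the highest decile (58.3% to 82.2%) 1.06% were lower and 11.03% higher. The median difference of the lowest decile was below 0 in all 6 pairs, at -0.57, -0.34 and -0.64 in 6419c5 and -1.16, -0.16 and -0.27 in 6694c2, and over all pairs it increased with every step of GC content, to 0.10 in the highest decile. When the median of genes of like GC content was subtracted within each pair, a setting chosen after this pattern was seen, 298 genes were counted higher and 19 lower. Of the 243 counted higher as deposited 229 remained, and of the 101 counted lower 16. The step sets the median of genes of like GC content to 0 in every pair. The fall in the lower count is therefore in part built in.

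**Figure D4:**
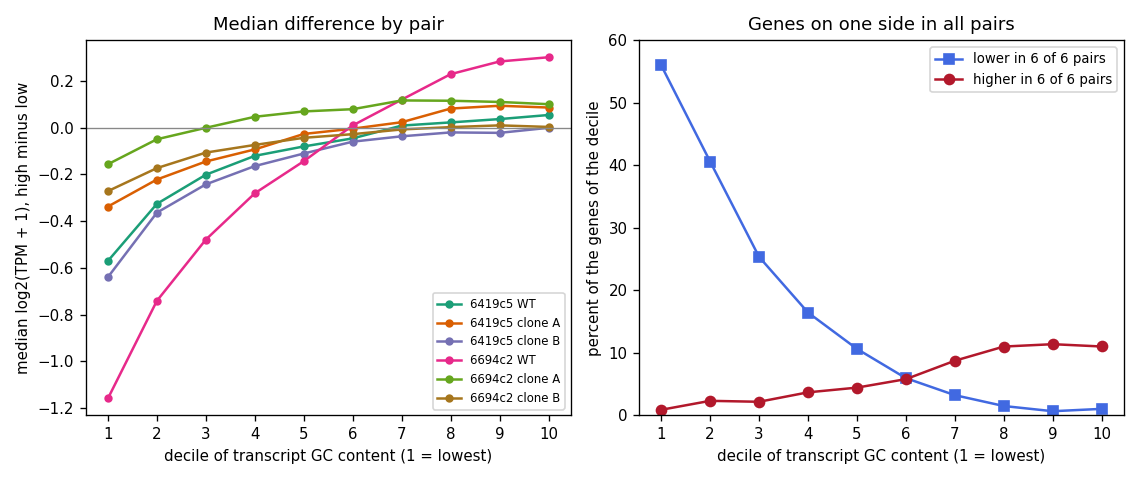
Left, median difference in log2(TPM + 1) between the high and the low library in each decile of transcript GC content, 1 line per pair. Right, percent of the genes of each decile that were higher or lower in all 6 pairs; 56.0% of the lowest decile were lower in all 6, against 1.06% of the highest.

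The middle libraries are in the middle by C1qa, so an in-between level of genes that track it is partly built in. Among the 243 counted-higher genes the middle library lay between the low and the high one for 87.7%, 91.4% and 61.3% in 6419c5 and 92.2%, 56.0% and 59.7% in 6694c2 (WT, clone A, clone B), against 29.7% to 55.5% for all genes. Among the 101 counted-lower genes it lay in between for 4.95%, 60.4% and 13.9% in 6419c5 and 86.1%, 50.5% and 91.1% in 6694c2. In 6419c5 WT the middle library had 0 TPM of Snora81, 19.5 TPM of 1810022K09Rik and 7.60 TPM of Rpl22l1, all below the high library, while its C1qb, at 262 TPM, lay between 134 and 1048 TPM. The median log2(TPM + 1) of the lowest decile of GC content minus that of the highest was -0.17, -1.58 and -0.87 in the low, middle and high library of that group. With the middle library in place of the low one, 127 genes were counted higher and 1 lower. With it in place of the high one, 5 were counted higher and 49 lower. The low libraries were nearest to 0 in that GC measure in 5 of 6 groups, and the exception was 6694c2 clone A (low -0.72, middle -0.71, high -0.99).

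Against the labelled comparison of knockout clones with WT, tested with limma on all 18 libraries, the counted-higher genes had wide errors: their median SE was 0.58, against 0.15 for all genes, since they were chosen for spread within groups and that spread enters the test. In 6419c5 limma called 990 of 13422 genes (7.38%) at an adjusted p under 0.05, 533 higher (3.97%) and 457 lower (3.4%), and 2 of the 243 (0.823%), H2-Eb1 (1.70, SE 0.46, limma adjusted p = 0.0366) and Cd74 (1.77, SE 0.45, adjusted p = 0.0242), both higher. In 6419c5 both calls were lost without WT replicate 1 (adjusted p = 0.187 and 0.117) and without WT replicate 2 (0.135 and 0.104); of 26 other settings 8 and 4 lost them. In 6694c2 it called 2744 (20.4%), 1967 higher (14.7%) and 777 lower (5.79%), and 54 of the 243 (22.2%), all higher. That split was 1023 higher and 1795 lower with median-of-ratios scaling and 899 and 1619 with quantile normalization, with 35 and 24 of the 243 called. Testing every gene above 0 in any library gave 35. Of the 243, 17 were called without 6694c2 WT replicate 3, 22 without WT replicate 1, and 29 each without clone A replicate 1 and without clone B replicate 3. Of the 101 counted-lower genes none was called by limma in 6419c5, where 0 had an unadjusted p under 0.05, and 1 in 6694c2, Crisp1 (2.74, SE 0.67, limma adjusted p = 0.0102, and 0.0664 without WT replicate 2). Without 6694c2 WT replicate 3, 7 of the 101 were called. Because of how the members were chosen, nothing is read from these counts.

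In the macrophage core list 1 of 29 genes was called in 6419c5, Cd14 (-0.39, SE 0.11, limma adjusted p = 0.039; lost in 13 of 26 other settings, with adjusted p = 0.167 without WT replicate 3), and 6 in 6694c2, all higher. Those shares, 3.45% and 20.7%, compare with 7.38% and 20.4% of all genes, so the second is near the share of all genes. The 6 were Aif1, Ctss, Cx3cr1, Lilrb4a, Sirpa and Clec4n. Without 6694c2 WT replicate 3, Aif1 (limma adjusted p = 0.0888), Ctss (0.0731), Sirpa (0.2003) and Clec4n (0.139) were no longer called. Of the 26 other settings Sirpa lost its call in 18, both other scalings among them, Clec4n in 9, both other scalings among them, Aif1 in 2, the other being without WT replicate 1 (0.0748), and Ctss in 1. Over the other 28 the test could show only large changes in 6419c5: Csf1r differed by -1.15 (SE 0.86, limma adjusted p = 0.553) and Cd68 by -1.09 (SE 0.71, adjusted p = 0.471). In 6694c2 Csf1r differed by 1.65 (SE 0.86, limma adjusted p = 0.188), Lyz2 by 2.12 (SE 0.75, adjusted p = 0.0591) and Apoe by 1.62 (SE 0.94, adjusted p = 0.239), and Cx3cr1 rose by 1.40 (SE 0.29, adjusted p = 0.00353). The spread within groups was wide, with C1qb at 481 ± 495 TPM (SD, n = 3) in 6419c5 WT. Each knockout difference averages clones A and B, so opposite changes cancel in part, and its SE leaves out variation between clones. In 6419c5 the mean C1qb of the clones fell on opposite sides of WT. Clone A averaged 869 TPM (SD 533), whereas clone B averaged only 32.9 TPM (SD 13.8). In 6694c2 both clone means, 553 (SD 91.3) for A and 180 (SD 242) for B, exceeded the 112 TPM (SD 130) of WT.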

How the data were processed

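RNA sequencing of 18 libraries in 6 labelled groups of 3 was deposited as 1 table of TPM for 24493 gene symbols. Salmon and mm10 are named in the submitters' processing notes; the Salmon version, the annotation and any adjustment between batches, which the table's name mentions, are not given in the sources used here. Each deposited TPM column sums to 1000000, so depth is unknown and no counting interval is given. The table letters the clones A and B and the titles number them; A was taken as the first, which affects only names.

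Values were analysed as log2(TPM + 1) for genes averaging 1 TPM or more. In each group the libraries with the highest and lowest C1qa formed a pair; because a measured value chose them, pair differences carry no p-value. Knockout clones were compared with WT by limma 3.58.1 (R 4.3.3; 6 group means over 18 libraries, empirical Bayes with trend, Benjamini-Hochberg adjustment over all genes, threshold 0.05). The comparison averages both clones of a line. P-values measure only the spread between these libraries, which may be technical. Both procedures were run on simulated data with independent noise. The simulated pairs had a smaller spread than these data, were not chosen by a simulated gene and held no shift with GC content. That run therefore does not test the counts of the pairs given here. Members, the 29 gene lists and the tests were chosen with earlier results of these data known. Named genes are the 15 largest differences each way among genes with at least 5 TPM in 1 set, up to 6 of the most abundant members of each list, Kdm3a, Klf5, Egfr and Mir6236; other genes were named after their values were seen. Gene models, GC content and positions came from GENCODE M21 (GRCm38), which held 23980 of the symbols, and promoters from RefSeq (GRCm38.p6). The 13 mitochondrially encoded genes were not analysed here. Alternatives were other pseudocounts, filters, scalings and orderings, the middle libraries, single libraries left out, GC-centring and protein-coding genes only; the last 2 were added after the data were seen.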

Additional observations from a re-analysis of the deposited data

Results flagged for a closer look

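In 5 of 32 sets of 6 pair differences looked at, 1 pair lay farther from the other 5 than chance alone gives in about 1 of 20 such sets. The median difference of fibroblast genes was 2.18 in the 6694c2 clone B pair, and that of T and NK cell genes was 1.01 in the same pair. In the 6694c2 clone A pair the median of endothelial and pericyte genes was 2.41. The 6694c2 WT pair, which had the largest difference in C1qa and in genes of low GC content, stood above the others with 0.78 for MHC class I genes and 0.47 for cytosolic ribosomal protein genes. The causes of these values were not tested.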

How the results depend on the processing

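The counts of genes higher and lower in the high library, 243 and 101, moved by over 1.5 times under several settings. With a pseudocount of 5 they were 128 and 36, and with 0.1 the lower count was 177. With the middle minus the lowest library they were 5 and 49, with the highest minus the middle library 127 and 1, and without the 3 libraries that stood apart 32 and 59. GC-centring left 19 lower. Leaving out 1 library at a time gave 91 to 244 higher and 6 to 173 lower genes. The higher count was 127 without 6694c2 clone A replicate 1 and 91 without clone B replicate 3. The lower count was 6 without 6419c5 WT replicate 1, 173 without WT replicate 3, 46 without clone A replicate 1, 11 without clone B replicate 2, 33 without 6694c2 WT replicate 3 and 41 without clone A replicate 1. With the highest minus the middle library, 5 of the named genes that were counted changed sign: Snord2 (0.25), Snord4a (0.36), Morf4l1b (0.19), Apoo (0.16) and Rpl22l1 (0.20). Sign changes of named genes that were not counted were not tallied. Ordering the libraries by C1qb kept 239 and 81 of the genes. The macrophage index gives the same order as C1qa in every group, so ordering by it could not change the counts. Over all settings, 5715 results of single genes stayed within 1 SD of the main value and 87 moved farther. The sign was checked for counted genes only, so other genes near 0 could change sign and still be among the 5715. Of list medians 871 stayed within 1 SD and 24 moved. Settings that leave every pair as it was, such as leaving out a middle library, add to the results that stayed. Over all genes, the counts of the knockout tests stayed within 1.5 times of 990 and 2744, at 686 to 1227 and 1962 to 2846 with 1 library left out, but the called number of the 243 in 6694c2 ranged from 17 to 78. After the mean of each group was subtracted, libraries of different groups with the same replicate number correlated at -0.39 to 0.48 (median -0.04, 45 pairs of libraries). Those with other numbers correlated at -0.63 to 0.66 (median 0.02, 90 pairs of libraries). The labels do not say whether a replicate number stands for a shared batch. With replicate number as a block in the knockout tests the counts were 930 and 2530. Causes were not tested. Unknown depth limits what low values can show: at a few TPM, a difference may rest on few reads.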
